A study of Mus musculus with 6 samples.

Results

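Guanylate-binding proteins are large GTPases of the dynamin superfamily, and the mouse genes lie in a cluster on chromosome 3 and another on chromosome 5. The 9 family genes described here are Gbp2, Gbp2b, Gbp3, Gbp5 and Gbp7 on chromosome 3 and Gbp4, Gbp6, Gbp8 and Gbp9 on chromosome 5. They were selected by gene symbol, with the family itself chosen on the caffeine-against-vehicle results of these hearts, so their differences between the groups are given as a description and carry no test of the family. Of the 9, 7 had a row among the 43629 genes of each file and 6 had enough reads to be tested. Positions are on GRCm38. Gbp8 was too low to test. No row matched the identifiers of Gbp5 and Gbp6 in GENCODE release 21 (mouse series M). The level of neither gene is given here, and only their annotated sequences are described. The counts use Ensembl release 79, and 1167 of their rows had no symbol in that GENCODE release. Rows for either gene under other identifiers were not searched for systematically. Gm43302, a gene model that overlaps Gbp6, has a row that is described below and was not used in place of Gbp6.

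RNA came from the left ventricles of 6 male F1 CD-1 mice at 1 year of age, an outbred stock. Dams received an i.p. injection of 20 mg/kg caffeine (3 hearts) or of the normal saline vehicle (3 hearts) once a day from E6.5, up to E9.5 by one label field and E10.5 by another. The study's methods end the daily injections at E9.5. The offspring were exposed only through the dam, and nothing in the sources used here ties a heart to a litter, so a p-value measures the spread between these 6 hearts. The comparison asked whether embryonic caffeine exposure was followed by a different level of these mRNAs in the adult ventricle. Libraries held 7613011 to 10483101 counted reads. By total counts, 3 reads corresponded to between 0.286 and 0.394 CPM (reads scaled for library size), a limit that covers counting error only. Levels given below were also scaled by TMM factors, and there 3 reads in caffeine heart 1 were 0.42 CPM. Every pair of hearts within a group differed beyond counting noise (5.37 to 14.01 as chi-square over its degrees of freedom), so no pair was a repeat count of the same library. This check does not separate hearts from library preparations. Ventricular cardiomyocyte markers summed to between 57784 and 67011 CPM per heart, against 0.840 to 2.35 CPM for atrial markers. Nppb (log2 fold change 1.92, edgeR quasi-likelihood adjusted p = 0.00228) and Acta1 (1.53, adjusted p = 0.00296), a natriuretic peptide and a skeletal actin gene, were among the 14 genes past the thresholds of adjusted p 0.05 and 1.5-fold, of which 11 were higher and 3 lower.

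Guanylate-binding proteins are transcribed in response to interferon, mainly interferon gamma, with IRF1 among the factors that act on their promoters. The proteins assemble on the vacuoles and membranes of bacteria and protozoa inside cells, together with the immunity-related GTPases, and open them to inflammasome sensing. Gbp2, Gbp2b (the mouse gene also called Gbp1) and Gbp5 carry a lipid anchor added by prenylation, and Gbp5 is known for promoting NLRP3 inflammasome assembly.

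The promoters of the chromosome 3 genes are shown first because interferon acts on this family through short DNA motifs. RefSeq promoter windows of 300 bases (GRCm38.p6, 250 bases before to 50 after the start) were matched for 5 of the 9 members, Gbp2, Gbp2b, Gbp3, Gbp5 and Gbp7, in 6 windows. The promoter reference used held no window for Gbp4, Gbp6, Gbp8 or Gbp9 on chromosome 5, so their promoters were not searched. The core of the interferon-stimulated response element was searched as GAAANNGAA, read on the other strand as TTCNNTTTC, and the gamma-activated site as TTCNNNGAA, which reads the same on both strands. All 5 genes held the response element core in at least 1 window, against 9.8% of the 27025 genes of the table and 8.6% of its 32851 windows. Gbp5 and Gbp7 each held 2 gamma-activated site matches, and 9.6% of all genes (8.3% of windows) held at least 1. The stretches of the 4 of these genes that were measured in the hearts follow, each on the plus strand, 5′ to 3′, with the matches in capitals and 10 bases on each side.
Gbp2: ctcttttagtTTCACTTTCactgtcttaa
Gbp2b: tacttctaatTTCACTTTCttctttatca
Gbp3: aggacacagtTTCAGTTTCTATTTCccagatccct
Gbp7: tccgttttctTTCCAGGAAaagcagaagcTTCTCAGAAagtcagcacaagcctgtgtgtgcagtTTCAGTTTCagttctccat

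The Gbp2 stretch lies at chr3:142620595-142620623, with its match beginning 58 bases before the RefSeq start, and overlaps the first bases of the GENCODE gene model. That of Gbp2b lies at chr3:142594701-142594729, its match 136 bases before the start. In Gbp3, at chr3:142559990-142560024, a pair of overlapping matches begins 44 and 38 bases before the start. Gbp7, at chr3:142530220-142530302, has gamma-activated site matches 106 and 87 bases before the start and the response element core 52 bases before it. These are matches of letters, with no measure of binding in these data, and a second annotated start of Gbp3 held neither motif.

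**Figure D1:**
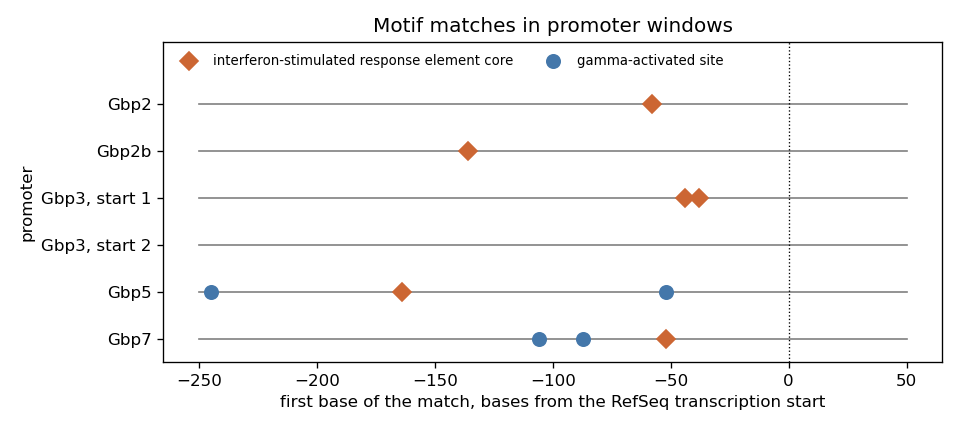
Positions of motif matches in the 6 promoter windows of 5 family genes, in bases from the RefSeq transcription start (dotted line); each grey line is 1 window, orange diamonds mark the interferon-stimulated response element core and blue circles the gamma-activated site. Every gene has an orange mark in at least 1 window, and blue marks appear for Gbp5 and Gbp7.

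All 6 tested members had a higher fitted level after caffeine than after vehicle, with a median log2 fold change of 0.55 against 0.001 for all 13092 tested genes, of which 50.1% were above 0. None of the 6 passed the thresholds, where 0.107% of all tested genes did, and their edgeR quasi-likelihood adjusted p-values ran from 0.319 to 0.843. The study, which used edgeR with these thresholds and did not name the test, listed Gbp2, Gbp3 and Gbp4 among its differentially expressed genes. It called many more genes in all than the 14 called here. At an unadjusted p under 0.05 there were 3 members, Gbp2, Gbp3 and Gbp7, among 1155 genes in all. The same 3 had every caffeine-treated heart above every vehicle heart, which held for 7.11% of tested genes. Both the choice of the family and these counts come from the same contrast, so nothing is read from them. Each of the 6 was highest in caffeine heart 1, a heart that was the highest of the 6 for 20.0% of all tested genes.

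Gbp2 (ENSMUSG00000028270, chr3:142620602-142638008, plus strand), whose product coats vacuoles that hold Toxoplasma, was the most abundant member per length of transcript. Its level was 17.7, 19.8 and 21.5 CPM in the vehicle hearts and 42.1, 21.9 and 25.8 CPM in the caffeine-treated hearts. Caffeine heart 1 was 2.15 times the vehicle mean, while caffeine heart 2 stood 1.02-fold above the highest vehicle heart. The means were 19.6 ± 1.90 and 29.9 ± 10.7 CPM (SD, n = 3 each), and the fitted log2 fold change was 0.60 (SE 0.21, edgeR adjusted p = 0.405).

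Gbp7 (ENSMUSG00000040253, chr3:142530342-142550149, plus strand) lies next to Gbp3 in the chromosome 3 cluster and takes part in the control of Toxoplasma. Vehicle hearts read 16.9, 15.05 and 18.8 CPM, and caffeine-treated hearts 41.2, 19.8 and 24.7 CPM. The order of the caffeine-treated hearts was that of Gbp2, with heart 1 far above the others and heart 2 only 1.05-fold above the highest vehicle heart. From 16.9 ± 1.90 to 28.6 ± 11.2 CPM (SD, n = 3 each), the log2 fold change was 0.75 (SE 0.23, edgeR adjusted p = 0.331).

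Gbp3 (ENSMUSG00000028268, chr3:142560026-142573209, plus strand) had the largest difference of the 6. The vehicle hearts held 6.64, 4.92 and 5.07 CPM and the caffeine-treated hearts 19.9, 7.34 and 9.03 CPM. Caffeine heart 1 was 3.59 times the vehicle mean, heart 3 was 1.63 times and heart 2 was 1.32 times. The gap between the groups, caffeine heart 2 over vehicle heart 1, was 1.104-fold and rested on 65 and 68 reads in libraries of different size. The fitted log2 fold change was 1.102 (SE 0.33, edgeR adjusted p = 0.319), from 5.54 ± 0.956 to 12.1 ± 6.81 CPM (SD, n = 3 each). Gbp3 also made up a larger share of the summed CPM of the 6 genes in every caffeine-treated heart (10.9%, 9.38% and 9.75%) than in any vehicle heart (8.29%, 6.97% and 6.45%).

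Gbp2b (ENSMUSG00000040264, chr3:142594847-142619179, plus strand), which encodes a prenylated member, was 5.67, 6.91 and 7.80 CPM in vehicle hearts and 15.7, 6.43 and 7.27 CPM in caffeine-treated hearts. Only caffeine heart 1 lay outside the vehicle range, at 2.31 times the vehicle mean, and the other two caffeine-treated hearts lay within it. The log2 fold change of 0.51 (SE 0.31, edgeR adjusted p = 0.681) came to 0.01 without caffeine heart 1.

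On chromosome 5, Gbp4 (ENSMUSG00000079363, chr5:105115767-105139586, minus strand) measured 24.5, 14.7 and 15.6 CPM in vehicle hearts and 47.7, 13.996 and 12.7 CPM in caffeine-treated hearts. Replicate 1 was the highest heart of either group, and caffeine hearts 2 and 3 were both below every vehicle heart. The fitted log2 fold change was 0.42 (SE 0.43, edgeR adjusted p = 0.843), and without caffeine heart 1 it became -0.45. The lowest adjusted p of Gbp4 over the alternative fits was 0.214, from edgeR with no filter on low counts.

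Gbp9 (ENSMUSG00000029298, chr5:105077630-105139539, minus strand), from the same cluster, had 8.70, 9.27 and 9.73 CPM in vehicle hearts, the narrowest vehicle spread of the 6 (coefficient of variation 5.6%). In caffeine-treated hearts it had 15.1, 8.80 and 13.1 CPM. Hearts 1 and 3 were above the vehicle range and heart 2 was inside it, and the log2 fold change was 0.41 (SE 0.19, edgeR adjusted p = 0.586). Gbp8 (ENSMUSG00000034438, chr5:105014150-105139540, minus strand) was counted 3, 1 and 1 times in vehicle hearts and 2, 2 and 5 times in caffeine-treated hearts, at or near the limit of 3 counts, so no fold is given. Gbp11, a family gene outside the 9 and annotated as a polymorphic pseudogene, had 2 reads in vehicle heart 1 and 0 in the other 5 hearts.

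**Figure D2:**
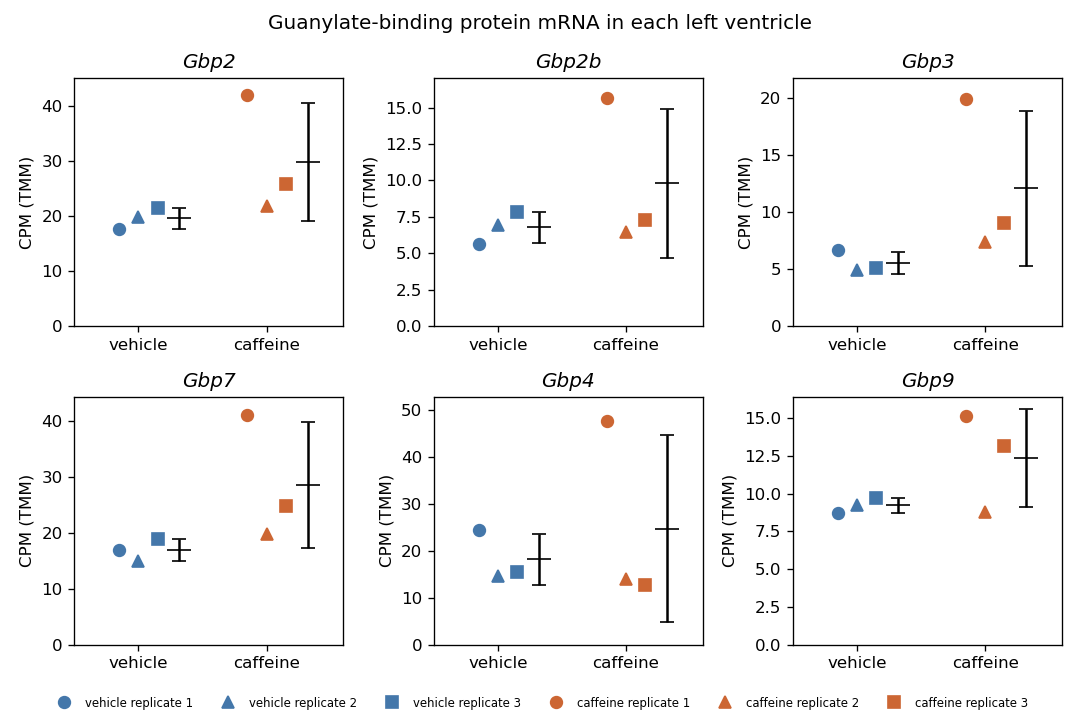
Levels of the 6 tested genes in each left ventricle, in CPM with TMM scaling, on axes that start at 0; points are hearts (circle, triangle and square for replicates 1, 2 and 3) and bars are the mean ± SD of 3 hearts. The circle of caffeine heart 1 is the highest point in all 6 panels, while caffeine heart 2 lies within the vehicle points of Gbp2b and Gbp9, below those of Gbp4 and just above those of Gbp2, Gbp3 and Gbp7.

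Summed over the 6 genes, vehicle hearts held 80.1, 70.6 and 78.5 CPM and caffeine-treated hearts 181.7, 78.2 and 92.6 CPM. Caffeine heart 2 was inside the vehicle range, heart 3 was above it, and heart 1 was far above both. The mean of the log2 CPM values over the 6 genes was 3.52 ± 0.08 in vehicle hearts and 4.05 ± 0.63 in caffeine-treated hearts (SD, n = 3 each), a difference of 0.53 that was 0.17 without caffeine heart 1 and between 0.49 and 0.77 without any other single heart. Across the genes, caffeine heart 1 was 1.64 (Gbp9) to 3.59 (Gbp3) times the vehicle mean, with a median of 2.37 where the median over all tested genes was 0.994.

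The coefficient of variation between hearts was 5.6% (Gbp9) to 29.8% (Gbp4) in the vehicle group and 26.1% (Gbp9) to 80.1% (Gbp4) in the caffeine group. For each of the 6 genes it was larger in the caffeine group. Without caffeine heart 1 the log2 fold changes were 0.56 for Gbp3, 0.39 for Gbp7, 0.28 for Gbp2, 0.25 for Gbp9, 0.01 for Gbp2b and -0.45 for Gbp4, and none passed the thresholds. With no filter on low counts, Gbp3 (log2 fold change 1.08, edgeR adjusted p = 1.11e-05) and Gbp7 (0.72, adjusted p = 9.62e-05) passed them, 2 of the 7 members with a row, where 0.647% of the 22407 genes in that fit were called higher. Gbp2 had adjusted p = 0.00393 there, with a fold below 1.5. Scaling by library size alone left Gbp3 as the single member with every caffeine-treated heart above every vehicle heart, while Gbp2 and Gbp7 then overlapped.

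**Figure D3:**
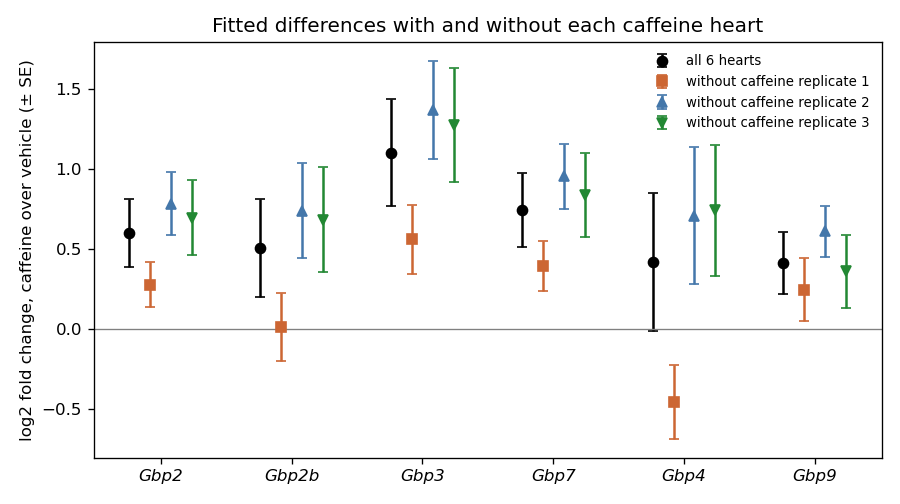
Fitted log2 fold change of caffeine over vehicle (± SE) for the 6 tested genes, with all 6 hearts (black) and leaving out each caffeine heart in turn (orange, blue and green for hearts 1, 2 and 3). The orange points are the lowest for every gene, near 0 for Gbp2b and at -0.45 for Gbp4.

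Set by length of annotated exons, vehicle levels followed the order Gbp2 (7.81 ± 0.755 CPM per kilobase), Gbp7 (3.02 ± 0.338), Gbp4 (2.44 ± 0.726), Gbp2b (2.41 ± 0.380), Gbp9 (1.79 ± 0.100) and Gbp3 (1.70 ± 0.293), each a level as mean ± SD of 3 hearts. Gbp2 stood clear of all the others, Gbp7, Gbp4 and Gbp2b lay within their combined spread, and so did Gbp9 and Gbp3. In caffeine-treated hearts Gbp2 was again first at 11.9 ± 4.27 CPM per kilobase, and Gbp3 (3.70 ± 2.08) lay among Gbp7 (5.09 ± 2.00), Gbp2b (3.47 ± 1.81) and Gbp4 (3.31 ± 2.65), all within their spread. Gbp8 was at 0.047 ± 0.033 and 0.106 ± 0.056 CPM per kilobase.

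Reads of 1 family gene can match another, so the 75-base windows of each gene's annotated transcripts were compared with those of all other genes. Between 0.9% (Gbp2b) and 3.6% (Gbp9) of the windows of Gbp2, Gbp2b, Gbp3, Gbp4 and Gbp9 occurred in another gene. Gbp7 shared 11.3% of its 5613 windows, 563 with the overlapping pseudogene Gm43802 and 70 (1.2%) with Gbp3, where the same 70 windows were 2.1% of those of Gbp3. Gbp4, Gbp8 and Gbp9 overlap at their 5′ ends by 60 or 61 exonic bases. Of Gbp6 67.3% of windows were shared, and of Gbp10, its neighbour outside the 9, 77.8%.

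Both lie under Gm43302, a gene model with a row that spans them on chromosome 5 and overlaps them over 81.6% of its exonic bases. Its counts were 284, 247 and 119 in vehicle hearts and 187, 161 and 294 in caffeine-treated hearts, or 27.7, 23.4 and 12.1 against 26.2, 18.2 and 34.5 CPM. Here caffeine heart 3 was highest, the groups overlapped, and the log2 fold change was 0.32 (SE 0.28, edgeR adjusted p = 0.814). With 89.9% of its windows also in Gbp6 and 60.2% in Gbp10, these reads cannot be assigned to either gene.

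**Figure D4:**
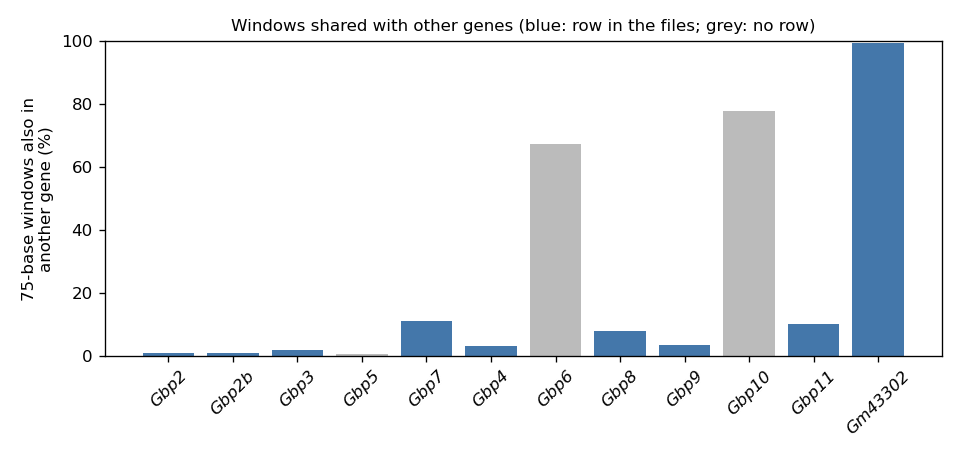
Share of each gene's 75-base transcript windows that also occur in another annotated gene, in percent, for 11 family genes and Gm43302. Blue bars have a row in the count files under their GENCODE identifier, and grey bars have none under it. The 6 tested genes lie between 0.9% and 11.3%, whereas Gbp6, Gbp10 and Gm43302 lie at 67.3% or more.

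The genes around this family in the interferon pathway were counted from lists, of which none held a gene past the thresholds. No interferon ligand or inducer could be tested. Ifng, the interferon gamma gene, had 1 read in vehicle heart 1 and 0 in the others. In all, 7 of the 11 ligand genes were at 0 in every heart. At these depths that allows a level of up to 0.42 CPM with TMM scaling, the value of 3 reads in caffeine heart 1. Receptors and kinases were all measured, and their 7 log2 fold changes had a median of 0.04, from -0.16 (the kinase Tyk2) to 0.17 (the kinase Jak1).

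Among 10 transcription factors of the response, 9 had a positive log2 fold change and the median was 0.26, with caffeine heart 1 highest for 6. Irf9, the DNA-binding factor of the type I interferon response complex, had 11.5, 11.3 and 11.3 CPM in vehicle hearts against 22.4, 11.2 and 15.5 CPM in caffeine-treated hearts (log2 fold change 0.51, edgeR adjusted p = 0.536). Nlrc5, an activator of MHC class I genes, had 2.74, 2.18 and 2.53 against 7.98, 1.81 and 3.17 CPM (0.76, adjusted p = 0.678). Both were highest in caffeine heart 1, and both overlapped between groups through caffeine heart 2. Irf1 was 18.5, 19.3 and 19.8 against 27.4, 17.4 and 18.3 CPM (0.13, adjusted p = 0.892), with caffeine heart 1 above every vehicle heart and the other two below. The list ran from Irf8 (-0.02, adjusted p = 0.992) to Ciita (1.004, adjusted p = 0.555), the activator of MHC class II genes, and Irf7 was the 1 factor of 10 with every caffeine-treated heart above every vehicle heart (7.11% of all tested genes).

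Immunity-related GTPases, which act with guanylate-binding proteins on pathogen vacuoles, had a median log2 fold change of 1.22 over 11 tested genes, 10 of them positive and none called. Caffeine heart 1 was highest for 10 of the 11. The list ran from F830016B08Rik (-0.05, edgeR adjusted p = 0.991) to Gm4841 (3.48, adjusted p = 0.273), whose vehicle levels of 0.879, 0.095 and 0.101 CPM and caffeine levels of 10.1, 1.13 and 1.64 CPM rest on few reads. Summed over the list, vehicle hearts held 109.2, 58.3 and 63.5 CPM and caffeine-treated hearts 270.2, 71.0 and 122.5 CPM. As with Gbp4, vehicle heart 1 was the highest vehicle heart and caffeine heart 1 the highest of all. Negative regulators had a median of 0.26 over 6 genes, from the phosphatase gene Ptpn11 (-0.23) to Socs1 (0.60), an inhibitor of JAK kinases.

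**Figure D5:**
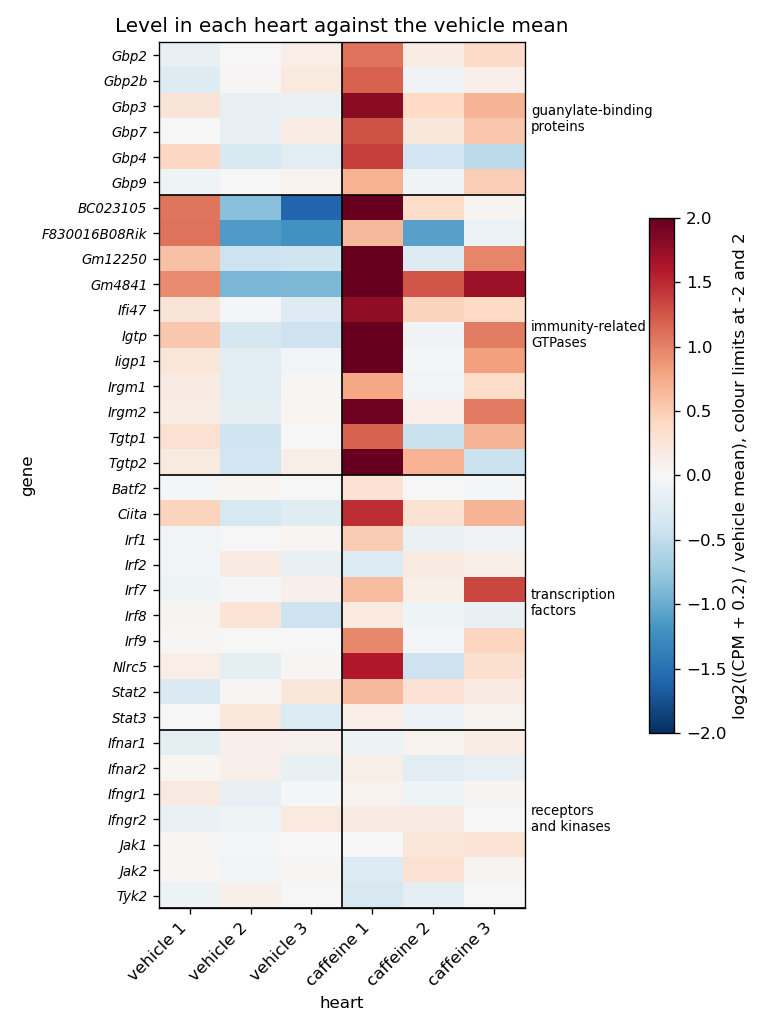
Each gene's level in each heart relative to its vehicle mean, as log2 of (CPM + 0.2) over the vehicle mean, for the 6 tested guanylate-binding protein genes and the tested immunity-related GTPases, transcription factors, and receptors and kinases of the interferon pathway; red is higher, blue lower, with the colour scale limited at -2 and 2. The caffeine 1 column is red for all 6 family genes and all 11 immunity-related GTPases and pale for receptors and kinases.

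Genes that act downstream or supply the proteins' lipid anchor and docking sites had list medians between 0.01 and 0.25. Prenylation enzymes had a median log2 fold change of 0.01 over 6 genes, from Fntb (-0.24) to Fnta (0.06), the subunits of farnesyltransferase. Genes of the ubiquitin-like proteins and their conjugation machinery that target GTPases to membranes had a median of 0.02 over 10 genes, from Map1lc3a (-0.11) to Gabarapl2 (0.23). Of the inflammasome genes, 6 of 10 were tested, with a median of 0.25 and a range from the DNA sensor Aim2 (-0.19) to the protease Casp1 (0.90).

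Macrophages and endothelium can both express guanylate-binding proteins. In bulk tissue a change in the number of cells of a type and a change in RNA per cell cannot be told apart. All 10 macrophage markers had a positive log2 fold change (median 0.41, from Cd68 at 0.05 to Adgre1 at 0.93), 3 of the 10 had every caffeine-treated heart above every vehicle heart (7.11% of all tested genes did), and none was called. Their summed level was 321.0, 362.2 and 238.4 CPM in vehicle hearts and 546.9, 280.3 and 426.3 CPM in caffeine-treated hearts. In this sum caffeine heart 1 was the highest and heart 2 lay within the vehicle range, as for the family sum. By gene, caffeine heart 1 was highest for only 5 of the 10. The 3 markers without overlap were each highest in caffeine heart 3. None of the 10 T and NK cell markers reached a testable level. Their sums were between 1.14 and 2.23 CPM in vehicle hearts and between 2.82 and 3.92 CPM in caffeine-treated hearts. These sums rest on few reads, at most 7 for any marker in a heart, and no difference is read from them. Of the 7 B and plasma cell markers only 2 had enough reads to be tested, Ighm (0.54, edgeR adjusted p = 0.649) and Igkc (1.53, adjusted p = 0.358). Igkc had 5, 11 and 4 reads in vehicle hearts and 23, 13 and 10 in caffeine-treated hearts. Endothelial markers had a median of 0.02, from Emcn (-0.24) to Egfl7 (0.15), fibroblast markers 0.26, from Col1a2 (0.17) to Col1a1 (0.38), and ventricular cardiomyocyte markers -0.06, from Myh6 (-0.31) to Actc1 (0.16). Their part in the levels of guanylate-binding proteins was not tested.

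The genes nearest in pattern were found by the root-mean-square difference, over the 6 hearts, between mean-centred log2 CPM values and the mean of the 6 family genes. This distance depends on the size of the differences as well as their shape, so genes that move the same way but more strongly rank lower. Irf9 was nearest (0.135 log2 units), followed by Cd274, which encodes PD-L1 (0.142), Calhm5 (0.148), Folr2 (0.151), Cobl (0.156), Hs3st1 (0.181), Ift140 (0.191), Gm14429 (0.192), Trmt61b (0.192) and the immunity-related GTPase Irgm1 (0.193). Among the family itself, Gbp7 (0.116), Gbp2 (0.128) and Gbp2b (0.159) lay nearest to the mean they contribute to, with Gbp9 at 0.241, Gbp3 at 0.256 and Gbp4 at 0.382. None of the 10 passed the thresholds.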

How the data were processed

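Left ventricular poly(A) RNA of 6 hearts was sequenced as single-end reads in 1 run. Per the submitters' notes and the study's methods, reads were cleaned with FastQC, mapped to mm10 (GRCm38) with TopHat2 and assigned to genes of Ensembl release 79 with HTSeq. The strand setting of the counting is not given in the sources used here. The deposited values are these raw counts, not normalized by the authors, and no replicates were pooled.

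Groups and replicate numbers came from the sample titles. Counts were filtered with filterByExpr (minimum count 10, minimum total 15), scaled by TMM and tested with the quasi-likelihood test of edgeR 4.0.16 in R 4.3.3 over all 13092 genes, with treatment as the only term and Benjamini-Hochberg adjustment. The thresholds were adjusted p 0.05 and 1.5-fold. The common biological coefficient of variation, 1 value for all tested genes together, was 12.1% and is not the spread of the family genes. Log2 CPM used a prior count of 2. DESeq2 1.42.0 was an alternative, with edgeR's exact test, other size factors, other filters, a replicate block and each heart left out. Overlap of hearts under other scalings was added after seeing the data. Fits were tested on simulated data with the same dispersion for all genes and planted changes larger than those of the family genes. That check does not show how well differences like those of the family genes are detected. Tables and figures used Python 3.11.15, pandas 2.3.3, NumPy 2.4.6 and Matplotlib 3.10.9.

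Gene models came from GENCODE release 21 (mouse series M, GRCm38) and promoters from RefSeq. The members and lists were chosen with earlier results of these data known. Genes named are all members, Gbp10 and Gbp11, genes of the lists past the thresholds or with the largest rise or fall, Ifng, Irf1, Irf8, Irf9 and Nlrc5, the 10 nearest patterns, and Nppb and Acta1 for the libraries. Gm43302, Irf7 and Gm43802 were named after their values or positions were seen. A transcription factor gene of that rule is not reported here and was left out of its list.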

Additional observations from a re-analysis of the deposited data

How the results depend on the processing

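With 3 hearts per group, single hearts carry much of each value, and counts of 50 to 341 per heart limit the precision of the 6 tested family genes. The number of genes past the thresholds was 14, and became 94 with edgeR's exact test, 67 with DESeq2, 240 with no filter on low counts and 40 with a replicate block, and between 4 and 28 leaving out 1 heart. No family gene passed except with no filter, where 2 did (Gbp3 and Gbp7), and the cause was not tested. Of 72 log2 fold changes of family genes under 12 alternative fits, 69 kept their direction and side of the thresholds, those 2 passed them, and Gbp4 reversed without caffeine replicate 1 (range -0.454 to 0.741 leaving out 1 heart). For Gbp3, edgeR or DESeq2 adjusted p-values ran from 1.11e-05 to 0.619 over these fits. The difference in the family mean was 0.45 to 0.54 under other scalings, prior counts and member sets. With library size only, 1 family gene in place of 3 had every caffeine-treated heart above every vehicle heart. Hearts of the same number did not deviate together (correlations 0.045, -0.03 and -0.038), so the replicate block tests a shared number only. With it Gbp3 had adjusted p = 0.138 and no family gene passed.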

Other observations

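Of 10 other tested GTPases of the dynamin superfamily, 7 had a negative log2 fold change, the median was -0.06, and values ran from Atl2 (-0.14), an endoplasmic reticulum fusion GTPase, to Mx2 (0.95, edgeR adjusted p = 0.505), an interferon-induced antiviral GTPase. None was called.

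F830016B08Rik, an immunity-related GTPase, had its highest level in vehicle heart 1, at 32.6 CPM against 6.91 and 6.48 CPM in the other vehicle hearts and 24.1, 7.11 and 14.1 CPM in the caffeine-treated hearts. Gbp4 was likewise highest in replicate 1 of each group, and its other 4 hearts lay between 12.7 and 15.6 CPM.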
